A study of Mus musculus with 2 samples.

Results

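The genes described here are 46 skeletal muscle genes, chosen by name for their roles in contraction, excitation and myogenesis, on arrays of incisor RNA from wild-type mice (C57BL/6J) and *Sox21* KO mice. They are 46 of 36405 gene names with a probe, and they were covered by 59 probes, with 1 probe for 36 genes and more than 1 for 10. The labels give 1 incisor sample per genotype at postnatal day 0, and the study's methods describe tooth germs of postnatal day 1. The *Sox21* KO mice were a gift, and the study credits them to the same earlier work as its reporter line with GFP inserted at the *Sox21* locus. The sources used here do not say which allele the array sample carried, nor how many animals stood behind either array. The 2 arrays are of the Agilent SurePrint G3 Mouse type with 1 dye, and each spot has a processed signal intensity from which the scanner software had removed the background. With 1 array per genotype, no difference below has a replicate check, and no test was run.

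Skeletal muscle contracts when myosin heavy chains of the thick filament pull on actin of the thin filament, and the troponin complex makes this depend on calcium. Muscle fibres replace their embryonic myosins by slow or fast forms around birth, and muscles of the jaw and tongue lie close to the tooth germs. The myogenic regulatory factors *Myf5*, *Myod1*, *Myog* and *Myf6* (Mrf4) switch on these genes in myoblasts by binding short E-box sequences. The tooth germ itself, made of dental epithelium and dental papilla, is not known to form muscle.

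Markers of tooth tissue were read first, and these cannot tell an incisor from another tooth. All 14 incisor markers, from *Amelx*, which encodes the main enamel matrix protein, to *Dspp* of odontoblasts, were well above background on both arrays. *Sox21*, the targeted gene, read 1362 in wild-type and 659 in KO at its brighter probe, and 286 and 103 at the other. Both were lower in the sample labelled KO but well above background there, and whether these probes lie in the deleted part of the gene is not given in the sources used here. Contractile genes were also plainly present. The scanner software marked 36 of the 46 genes as well above background on both arrays, and 19746 of all 36405 gene names. *Myf6* carried that mark only in wild-type, *Mb* only in KO, and 8 genes in neither. Among all gene names, 693 carried it only in wild-type, 897 only in KO and 15069 in neither. Those 8 were *Myh2*, *Mylpf*, *Chrna1*, *Chrng*, *Casq1*, *Myod1*, *Myf5* and *Pax7*, and no ratio is given for them. Each array is 1 RNA extract of a whole dissected tissue, so fewer muscle cells and less of a transcript per cell cannot be told apart.

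Each value rests on a 60-base probe, and the probes of the genes on which the results turn are shown here as the files give them, 5′ to 3′, with mm9 coordinates. Probes whose bases hold an open reading frame and that either cross a splice junction or sit inside the transcript were chosen for display. A span of more than 60 bases means that the probe crosses a junction between exons. The capitals mark the 27 bases that both probes of *Tnnt3* share, and the others have no capitals.
*Tnnt3*, brighter probe, chr7:149698467-149698526, plus strand: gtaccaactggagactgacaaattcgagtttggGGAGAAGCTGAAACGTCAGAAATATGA
*Tnnt3*, dimmer probe, chr7:149698500-149700262, plus strand: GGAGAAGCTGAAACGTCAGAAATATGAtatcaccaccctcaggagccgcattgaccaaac
*Myoz2*, chr3:122709486-122716527, minus strand: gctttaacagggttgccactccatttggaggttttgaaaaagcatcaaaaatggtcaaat
*Ckm*, chr7:20002222-20004829, plus strand: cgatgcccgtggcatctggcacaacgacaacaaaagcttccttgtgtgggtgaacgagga
*Acta1*, chr8:126416197-126416256, minus strand: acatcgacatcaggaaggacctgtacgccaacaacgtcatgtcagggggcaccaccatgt
*Myl1*, dimmer probe, chr1:66976853-66981100, minus strand: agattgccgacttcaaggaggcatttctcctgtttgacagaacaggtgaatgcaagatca
*Myh3*, dimmer probe, chr11:66915107-66915166, plus strand: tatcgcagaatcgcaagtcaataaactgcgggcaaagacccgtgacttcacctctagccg
*Myh8*, chr11:67121925-67121984, plus strand: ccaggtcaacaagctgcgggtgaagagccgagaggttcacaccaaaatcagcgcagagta
*Ryr1*, chr7:29788789-29789487, minus strand: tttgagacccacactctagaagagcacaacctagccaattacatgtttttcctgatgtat

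Most of the measured muscle genes had lower signals on the *Sox21* KO array. After each signal was divided by the 75th percentile of its array, 30 of the 36 measured genes were lower, against 49.5% of the 19746 gene names measured on both arrays. Their median log2 ratio, as *Sox21* KO minus wild-type, was -0.33, and that of all genes was 0.00. The other 6 genes, *Myh3*, *Myh1*, *Myh4*, *Neb*, *Ryr1* and *Cacna1s*, were higher, a direction that 50.5% of all genes had. With the arrays scaled by the median of all spots instead, 27 of the 36 were lower, against 33.4% of all genes. The summed normalized signal of the 36 genes went from 177 to 125, where 1 unit is the 75th percentile of the array. Most of this sum came from the 5 brightest probes, those of *Tnnc2*, *Myl1*, *Tnni2*, *Acta1* and *Actc1*, which went from 124 to 79.3, while the other 31 genes went from 53.3 to 45.2.

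The sizes were moderate. At least 1.5-fold lower were 10 genes, where 3.74% of all genes were. These were *Actc1*, *Myl2*, *Myoz2*, *Myl1*, *Tnnt3*, *Tnni2*, *Tnnc2*, *Myoz1*, *Acta1* and *Ckm*. At least 1.5-fold higher was 1 gene, *Myh3*, where 3% of all genes were. At least 2-fold lower was 1 gene, *Myoz2*, where 0.825% of all genes were, and 0 muscle genes were 2-fold higher. With the arrays scaled by the median of all spots, 6 genes were at least 1.5-fold lower, against 2.48% of all genes, and *Tnni2*, *Tnnc2*, *Myoz1* and *Acta1* no longer were. With normexp background correction 7 genes were at least 1.5-fold lower, without *Myl2*, *Myoz1* and *Ckm*, against 1.57% of all genes. At that setting 0 were at least 2-fold lower, against 0.289%, with *Myoz2* at -0.81. With quantile normalization 9 were at least 1.5-fold lower, without *Tnnc2*, against 3.48%. The scanner software gives an error for each signal, and on the log2 ratio this error was typically 0.21 for these genes. Lower by more than 2 such errors were 15 genes, the 10 named first and *Actn2*, *Des*, *Tcap*, *Pvalb* and *Atp2a1*, against 6.19% of all genes. Against the same errors, 11 genes passed with the median scaling, without *Actn2*, *Des*, *Pvalb* and *Atp2a1*, where 3.91% of all genes did. With normexp 10 passed, *Myl2* being left out too, where 3.50% of all genes did. Higher by more than 2 errors was *Myh3* alone of these genes, against 4.96%. This error describes the reading of a spot and leaves out the spread between animals.

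**Figure D1:**
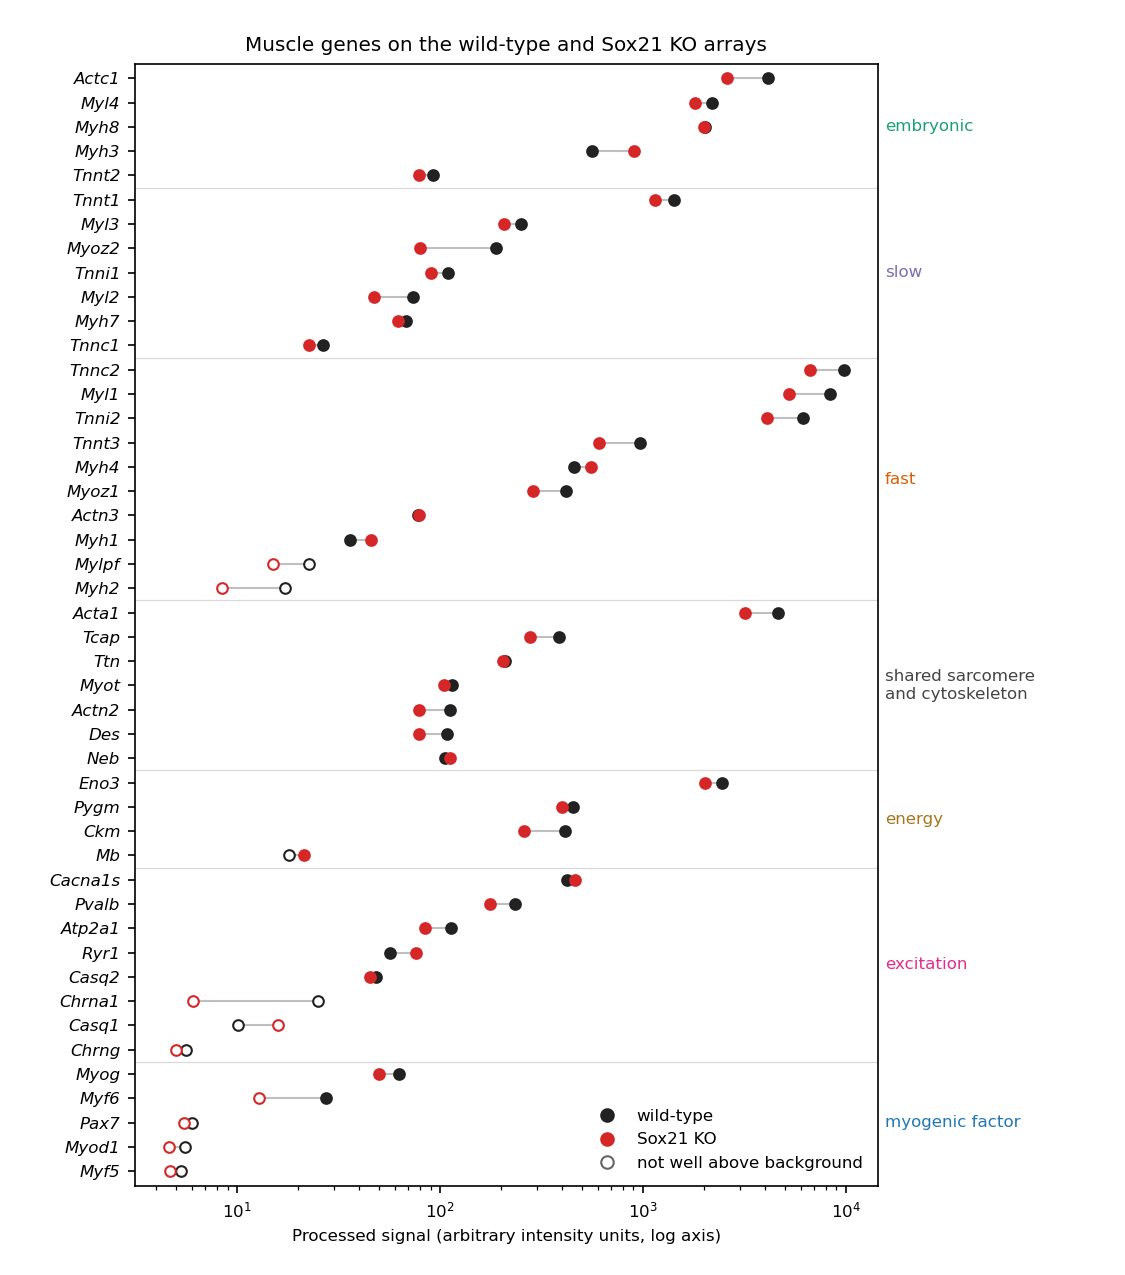
Processed signal of each of the 46 muscle genes (arbitrary intensity units, log axis) on the wild-type array (black) and the *Sox21* KO array (red), 1 probe per gene and 1 array per genotype, in 7 classes. Open circles are not well above background. In the slow class all 7 genes lie lower on the KO array, and *Myh3*, *Myh4*, *Myh1* and *Ryr1* lie higher.

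Among the genes of embryonic muscle, the embryonic myosin heavy chain and the embryonic actin differed in direction. *Myh3*, the embryonic myosin heavy chain, read 565 in wild-type and 907 in KO, a log2 ratio of 0.64 ± 0.20 (scanner error). Its dimmer probe, shown above, read 411 and 638, a log2 ratio of 0.59. Both probes of *Myh3* were thus higher by a similar amount. *Myh8*, the perinatal myosin heavy chain, read 2028 and 1994, and its log2 ratio of -0.07 ± 0.20 was within the error. *Actc1*, the actin of the heart and of fetal skeletal muscle, read 4165 and 2598, a log2 ratio of -0.72 ± 0.20. *Myl4*, the embryonic essential light chain, read 2188 and 1812 (-0.31 ± 0.20), and *Tnnt2*, the cardiac and embryonic troponin T, 92.1 and 79.0 (-0.26 ± 0.24). The class median was -0.26 over 5 genes, of which 4 were lower, and it was -0.15 with normexp background correction and -0.17 with scaling by the median of all spots. For this count and those of the other classes, the share of all genes that were lower is the 49.5% given above.

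All 7 genes of slow fibres were lower on the KO array, as 49.5% of all genes were, with a class median of -0.33. *Myoz2*, which encodes calsarcin-1, a Z-disc protein of slow fibres and heart that binds calcineurin, had the largest difference of all 36 genes. It read 189 in wild-type and 79.9 in KO, 2.44-fold lower, with a log2 ratio of -1.28 ± 0.23. *Myl2*, the slow regulatory light chain, read 73.8 and 47.2 (-0.69 ± 0.25, and -0.36 with normexp background correction). The other 5 genes were lower by less than 2 scanner errors. *Tnnt1*, the slow troponin T, read 1427 and 1147, a log2 ratio of -0.36. *Tnni1*, the slow inhibitory subunit, read 110 and 90 (-0.33), and *Tnnc1*, the slow calcium-binding subunit, read 26.5 and 22.7 (-0.27). *Myl3*, the slow essential light chain, read 252 and 207 (-0.32). *Myh7*, the slow myosin heavy chain, had nearly the same signal on both arrays, 68.0 and 62.1, with a log2 ratio of -0.17 ± 0.26.

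Of the fast class, *Myl1*, the 3 troponin subunits and *Myoz1* were lower by more than 2 scanner errors, and *Myh4*, *Myh1* and *Actn3* lay within 2 errors of 0. *Myl1*, the fast essential light chain, read 8391 and 5246, a log2 ratio of -0.72 ± 0.20, and its dimmer probe, on a second transcript of the gene, read 201 and 118 (-0.81 ± 0.22). *Tnnt3*, the fast troponin T, read 967 and 608 (-0.71 ± 0.20) at one probe and 648 and 350 (-0.93 ± 0.21) at the other. These 2 probes share 27 bases, as printed above, and so are not independent readings of the gene. *Tnni2*, the fast inhibitory subunit, read 6185 and 4114 (-0.63 ± 0.20). *Tnnc2*, the fast calcium-binding subunit, read 9790 and 6706 (-0.59 ± 0.20). *Myoz1*, calsarcin-2 of fast fibres, read 421 and 287 (-0.59 ± 0.21). The 5 genes just given lie close together, at 1.5-fold to 1.65-fold lower.

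The 2 measured fast myosin heavy chains read higher in KO by about 1 scanner error. *Myh4*, the heavy chain of type IIb fibres, read 457 in wild-type and 554 in KO (0.24 ± 0.20). *Myh1*, that of type IIx fibres, read 35.9 and 45.7 (0.30 ± 0.30). *Actn3*, the Z-disc actinin of fast fibres, read 78.1 and 79.0, and after scaling its log2 ratio was -0.03 ± 0.24. *Myh2*, the heavy chain of type IIa fibres, read 17.2 and 8.44 and carried no mark of being well above background. The same was true of *Mylpf*, the fast regulatory light chain, with 22.6 and 15. The class median was -0.59 over 8 measured genes, of which 6 were lower.

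The skeletal myosin heavy chain genes lie side by side on chromosome 11 of mm9, where their probes start at 66915724 (*Myh3*), 67010960 (*Myh2*), 67038002 (*Myh1*), 67073834 (*Myh4*) and 67121925 (*Myh8*). Along this cluster the log2 ratios were 0.64, 0.30, 0.24 and -0.07, leaving out *Myh2*. Only *Myh3* of these 4 was beyond 2 scanner errors.

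**Figure D2:**
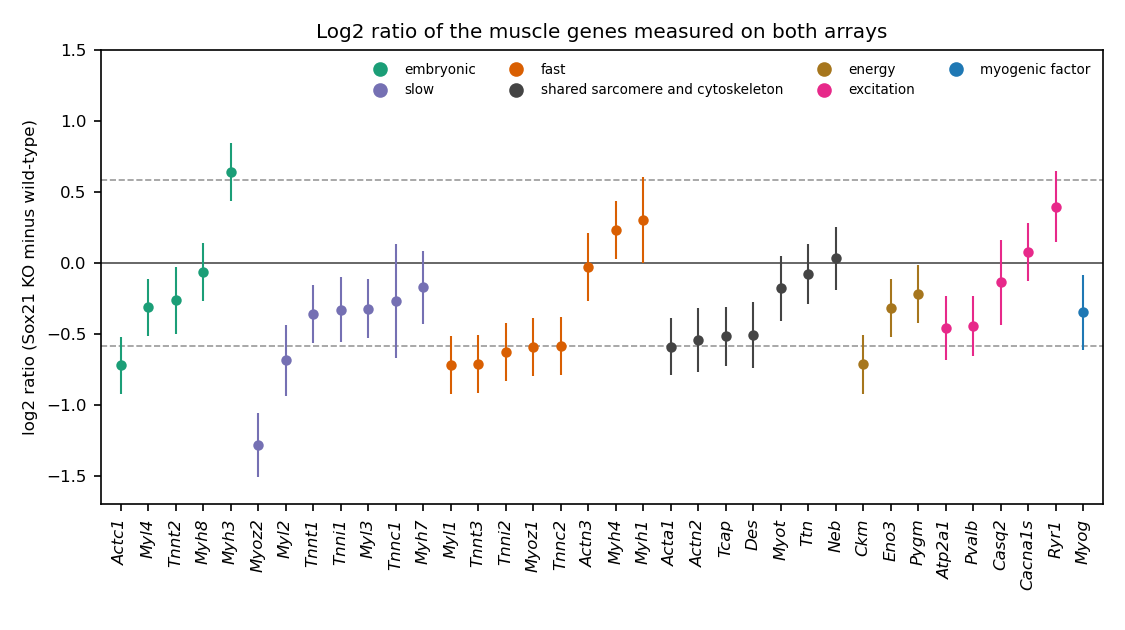
Log2 ratio (*Sox21* KO minus wild-type) of the 36 muscle genes measured on both arrays, grouped by class and sorted within it. Bars are the scanner error of the ratio, dashed lines mark 1.5-fold, and each point is 1 array against 1 array. Fast troponins and *Myl1* lie at or below the lower dashed line, and *Myh3* lies above the upper one.

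The structural proteins that fast and slow fibres share were lower or level. *Acta1*, the skeletal alpha-actin, read 4666 and 3192, a log2 ratio of -0.59 ± 0.20. *Actn2*, the main Z-disc actinin, read 112 and 79.1 (-0.54 ± 0.23), and *Tcap*, which anchors titin at the Z-disc, read 386 and 277 (-0.52 ± 0.21). *Des*, the intermediate filament desmin, was spotted 8 times. Its signal ran from 97.1 to 124 with a median of 108 in wild-type, and from 66.2 to 91.8 with a median of 78.6 in KO. The spots of the 2 arrays did not overlap, and the mean log2 ratio over spots was -0.51 with an SD of 0.19. *Myot*, the Z-disc protein myotilin, read 115 and 105 (-0.18 ± 0.23). *Ttn*, the giant protein that spans from Z-disc to M-line, read 210 and 205 (-0.08 ± 0.21). *Neb*, nebulin of the thin filament, read 106 and 112 (0.03 ± 0.22). The class median was -0.51 over 7 genes, of which 6 were lower, and -0.31 with normexp background correction.

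Of the energy genes, *Ckm*, the muscle creatine kinase, read 412 and 259, a log2 ratio of -0.71 ± 0.21. *Eno3*, the muscle enolase, read 2459 and 2032 (-0.32 ± 0.20), and *Pygm*, muscle glycogen phosphorylase, read 453 and 401 (-0.22 ± 0.21). All 3 measured genes of this class were lower, and the last pair by less than 2 errors. *Mb*, myoglobin, read 18.1 and 21.4 and was well above background on the KO array alone, which gives no fold.

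The genes of excitation and calcium handling lay on both sides of 0, with a median of -0.14 over 5 measured genes. This median was -0.26 with the mean over probes, -0.44 with the dimmest probe and -0.041 with scaling by the median of all spots. *Pvalb*, the calcium buffer parvalbumin of fast fibres, read 234 and 178 (-0.44 ± 0.21). *Atp2a1*, the calcium pump SERCA1 of the sarcoplasmic reticulum, read 113 and 84.7 (-0.46 ± 0.23). Both were lower by slightly more than 2 errors. *Ryr1*, the calcium release channel, was higher, with 56.6 and 76.7 (0.40 ± 0.25), short of 2 errors, and its log2 ratio was 0.15 with normexp background correction. *Casq2*, a calsequestrin that stores calcium, read 48.5 and 45.4 (-0.14 ± 0.30). *Cacna1s*, the voltage sensor of the T-tubule, read 425 and 461 (0.08 ± 0.21) at its brighter probe but 58.3 and 39.7 (-0.59 ± 0.29) at the dimmer, so its direction depends on the probe. The acetylcholine receptor subunits *Chrna1*, with 25.2 and 6.05, and *Chrng*, with 5.61 and 5.03, were also without that mark, as was *Casq1*, the fast calsequestrin, with 10.1 and 15.9.

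Of the 5 factors that specify muscle, *Myog* alone was well above background on both arrays. *Myog*, the factor of differentiating myoblasts, was spotted 9 times, with a lowest, median and highest signal of 46, 59.8 and 78.6 in wild-type and of 39.6, 51.2 and 60.0 in KO. These ranges overlap, although 8 of the 9 spots were lower after scaling. Its mean log2 ratio was -0.35 with an SD of 0.27 between spots, and -0.19 with normexp background correction. *Myf6*, the factor of maturing fibres, read 27.5 in wild-type and 12.8 in KO, where it was not well above background. It was at least 1.46-fold lower before the scanner error, and its log2 ratio of -1.14 ± 0.67 was short of 2 errors. *Myf5* and *Myod1*, the factors of myoblast commitment, read 5.29 and 5.57 in wild-type and 4.68 and 4.61 in KO. *Pax7*, the factor of satellite cells, read 6.0 and 5.49. All of the last 3 were below the mark in both genotypes, which no probe reading less than 21.3 in wild-type or 19.5 in KO passed.

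Genes with several probes showed how far 1 probe stands for a gene. Of the 10 such genes, 5 had at least 2 probes measured on both arrays, and 4 of these, *Myh3*, *Myl1*, *Tnnt3* and *Ttn*, had the same direction at both. Among these pairs the widest difference was in *Cacna1s*, at 0.67 on the log2 scale. *Ttn* had 4 probes. The brightest, at base 101578 of its transcript, read 210 and 205, and the next, at base 93881, read 79.8 and 62.1 (-0.40 ± 0.26). A probe at base 33226 read 29.2 in wild-type and 15.9 in KO, where it was not well above background. It was at least 1.55-fold lower before the scanner error, and its log2 ratio of -0.92 ± 0.47 was short of 2 errors. The last, at base 2094 of another listed transcript, read 82.9 in wild-type and 5.28 in KO, at least 4.38-fold lower. The near equality of *Ttn* is that of its brightest probe, and the other 3 read lower on the KO array. For *Neb*, the probe at base 10763 was level. The one at base 21759 read 29.5 and 21.5, 1.41-fold lower, and was not well above background in KO. Its log2 ratio of -0.50 ± 0.49 was about the size of its error.
The 3 dimmer *Ttn* probes are printed because they differ so much among themselves, with mm9 coordinates and no capitals.
*Ttn*, base 93881, chr2:76551742-76551801, minus strand: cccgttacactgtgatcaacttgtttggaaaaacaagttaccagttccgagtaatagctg
*Ttn*, base 33226, chr2:76655847-76655906, minus strand: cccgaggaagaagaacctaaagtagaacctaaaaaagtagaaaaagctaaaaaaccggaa
*Ttn*, base 2094 of another transcript, chr2:76802542-76802601, minus strand: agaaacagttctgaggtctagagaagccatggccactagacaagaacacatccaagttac

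**Figure D3:**
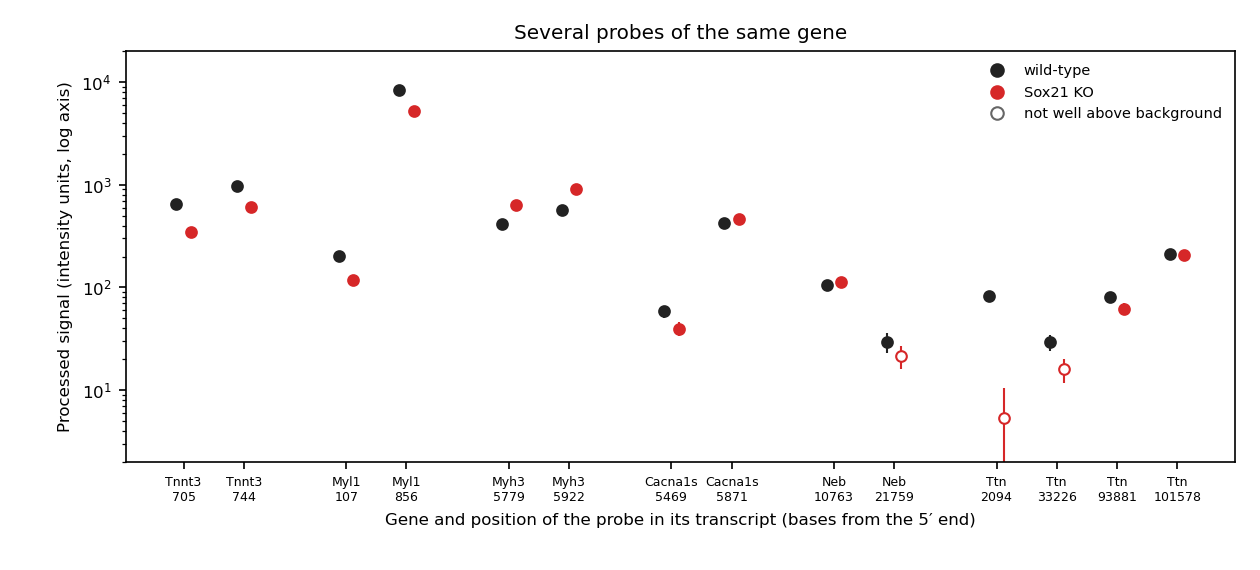
Processed signal (intensity units, log axis) of the probes of 6 muscle genes on the wild-type (black) and *Sox21* KO (red) arrays, by position of the probe in its listed transcript; the probe of *Ttn* at base 2094 and both pairs of *Tnnt3* and *Myl1* are on different transcripts. Bars are the scanner error of the signal, hidden where smaller than the point, and open circles are not well above background. *Ttn* is level at base 101578 and far apart at base 2094.

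The log2 ratio of the muscle genes varied with the start of the probe in its transcript, by the position that the scanner files list. This position is counted from the 5′ end, so a late start also means a long transcript. Position and transcript length cannot be told apart here. For *Cacna1s* and *Pvalb* the listed positions of their 2 probes are 402 bases apart, as are their genome coordinates. All 21 genes with a probe that starts before base 1500 were lower, with a median of -0.52 and a range of -1.28 to -0.26. All 6 with a start from 1500 to 5000 were lower, with a median of -0.20. Of the 9 with a start at 5000 or beyond, 3 were lower and the median was 0.08. Those 9 are the 5 measured myosin heavy chains, *Ttn*, *Neb*, *Ryr1* and *Cacna1s*. Spearman's rank correlation between start and log2 ratio was 0.69 over the 36 genes, which share the same 2 arrays, and the 3 ranges were set after the values were seen.

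Genes outside this set shared the tendency to a smaller degree. Of the 13041 measured genes that are neither in this set nor in the other muscle lists and have a curated mRNA record, 51.8% were lower with a start before base 1500, 46.9% from 1500 to 5000 and 34.4% at 5000 or beyond. Their medians were -0.01, 0.02 and 0.08, and the rank correlation was 0.11. At starts of 5000 or beyond the median of the muscle genes was thus that of other genes, and the 10 genes at least 1.5-fold lower all had a start before base 1500. In 69 other muscle genes the medians were -0.19, -0.01 and 0.01 in the same 3 ranges, with a rank correlation of 0.23. The part of probe position, or of transcript length, in the difference between the heavy chains and the light chains or troponins was not tested.

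**Figure D4:**
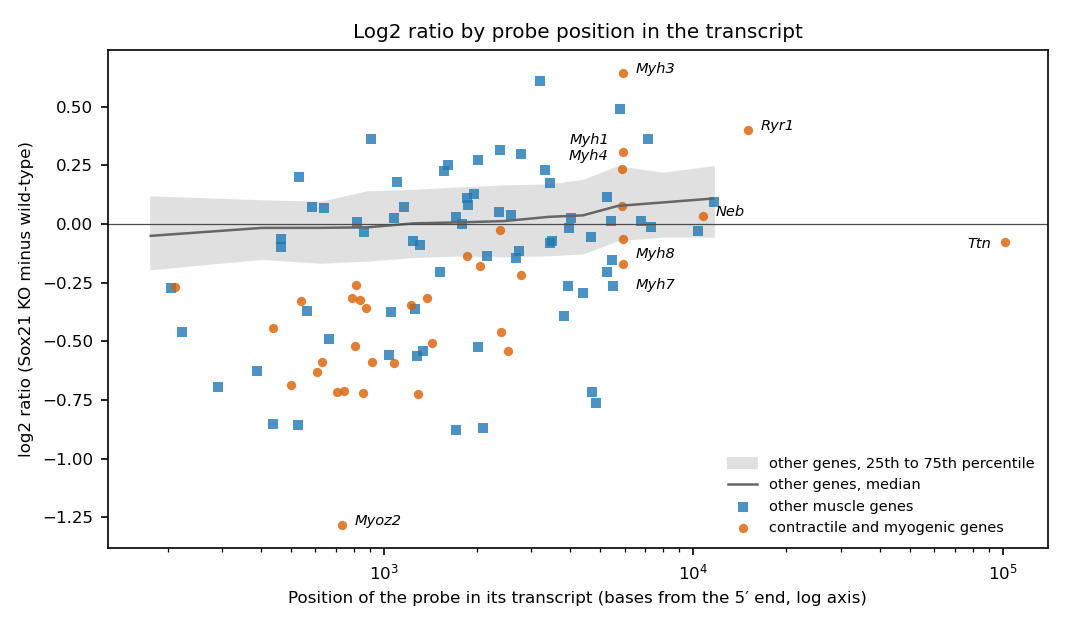
Log2 ratio (*Sox21* KO minus wild-type) against the start of the probe in its transcript (bases from the 5′ end, log axis) for 36 contractile and myogenic genes (orange) and 69 other muscle genes (blue), with the median and the 25th to 75th percentiles of 13041 other genes (grey). The 21 orange points before base 1500 all lie below 0, and those beyond base 5000 lie on both sides.

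Signal strength moved with the ratio less. The 17 muscle genes with a mean normalized signal of at least 1 had a median log2 ratio of -0.52, with 14 lower, and the 19 dimmer ones a median of -0.27, with 16 lower. Over all genes the medians in the same ranges were 0.01 and -0.02, and 47.8% and 52.0% were lower. The rank correlation between signal and log2 ratio was -0.33 over the 36 genes, again as a description of the same 2 arrays.

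The promoters of these genes were searched for the E-box that myogenic factors bind, since most of the genes had the same direction. RefSeq windows of 250 bases before to 50 bases after the start (GRCm38.p6) matched 37 of the 46 genes by symbol, with 44 windows. The E-box CAGCTG, which is its own reverse complement, was in 47.7% of the 44 windows and in 16.3% of all 32851 windows. The general E-box CANNTG, which includes it, was in 84.1% and 72.3%. CACCTG, read on both strands, was in 25% and 20.2%, and the TATA box letters TATAAA, on both strands, in 25% and 13.6%. Among the 29 measured genes with a window, the 13 with CAGCTG had a median log2 ratio of -0.46, with 11 lower, and the 16 without it one of -0.29, with 13 lower. The ranges of the log2 ratio, -1.28 to 0.24 with the motif and -0.72 to 0.64 without it, overlapped widely. A match in these letters is a description and not a binding site. The 250 bases before the start are printed for *Myoz2*, the gene with the largest difference, *Des*, *Pygm* with 2 matches, and *Myh4*, which was higher on the KO array, with CAGCTG in capitals. The match closest to the start of each lies 12 bases before it in *Myoz2*, 36 in *Des*, 8 in *Pygm* and 67 in *Myh4*.
*Myoz2*, chr3:123034988-123035237, minus strand: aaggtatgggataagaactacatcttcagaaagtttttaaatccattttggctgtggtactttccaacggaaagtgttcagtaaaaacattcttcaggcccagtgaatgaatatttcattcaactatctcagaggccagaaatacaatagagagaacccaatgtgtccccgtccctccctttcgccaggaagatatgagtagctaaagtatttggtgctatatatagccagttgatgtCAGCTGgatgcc
*Des*, chr1:75360042-75360291, plus strand: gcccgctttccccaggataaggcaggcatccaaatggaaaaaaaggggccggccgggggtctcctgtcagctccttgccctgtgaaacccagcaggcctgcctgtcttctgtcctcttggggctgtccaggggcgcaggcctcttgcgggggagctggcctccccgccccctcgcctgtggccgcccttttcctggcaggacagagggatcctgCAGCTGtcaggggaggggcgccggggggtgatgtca
*Pygm*, chr19:6384158-6384407, plus strand: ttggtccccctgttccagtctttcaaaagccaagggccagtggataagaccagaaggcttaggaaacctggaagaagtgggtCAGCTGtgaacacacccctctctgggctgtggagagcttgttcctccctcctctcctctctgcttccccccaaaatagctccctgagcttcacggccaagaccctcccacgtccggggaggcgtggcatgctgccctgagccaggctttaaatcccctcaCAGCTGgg
*Myh4*, chr11:67237562-67237811, plus strand: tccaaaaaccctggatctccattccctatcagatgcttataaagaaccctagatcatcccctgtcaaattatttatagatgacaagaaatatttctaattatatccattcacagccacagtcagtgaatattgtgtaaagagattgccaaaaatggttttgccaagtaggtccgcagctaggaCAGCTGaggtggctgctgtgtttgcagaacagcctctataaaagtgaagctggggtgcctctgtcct

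Other muscle genes, 112 in 5 lists, were read for comparison, of which 5 had no probe under the name listed. Of the 70 measured on both arrays, 39 were lower and 31 higher, with a median of -0.05, where 49.5% of all genes were lower. At least 1.5-fold lower were 8 of the 70, where 3.74% of all genes were, and 1, *Myocd*, was at least 1.5-fold higher, where 3% of all genes were. The 2-fold line was passed by 0 measured genes. The median of these lists lay nearer to that of all genes than the median of the 36 genes did.

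Further sarcomere genes had a median of -0.07, with 13 of 22 lower against that same 49.5%. *Lmod3*, which builds thin filaments, read 116 and 65.4 (-0.87 ± 0.24), *Smpx*, a small protein of the muscle membrane, 68.1 and 38.7 (-0.86 ± 0.27), and *Myom2*, an M-line protein, 2697 and 1637 (-0.76 ± 0.20). The 3 brightest were the tropomyosins, which non-muscle cells also make. *Tpm3* read 18396 and 18937 (0.00), *Tpm1* 5885 and 4676 (-0.37) and *Tpm2* 5189 and 5103 (-0.07).

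Excitation and calcium genes had a median of -0.11, with 7 of 12 lower. *Stac3*, a partner of the calcium channel, read 10370 and 5814 (-0.88 ± 0.20), *Sln*, the inhibitor of the calcium pump, 1594 and 909 (-0.85 ± 0.20), and *Srl*, a calcium-binding protein of the sarcoplasmic reticulum, 127 and 79.4 (-0.72 ± 0.23). *Scn4a*, the muscle sodium channel, was higher, with 66.6 and 96.2 (0.49 ± 0.24). *Rapsn*, which clusters acetylcholine receptors, read 26408 and 31756 (0.22 ± 0.20). The receptor subunit *Chrnd* read 44.8 in wild-type and 15.5 in KO, where it was not well above background, and was at least 2.37-fold lower.

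The further energy genes had the lowest median of these lists, -0.27, with 7 of 9 lower. The muscle subunits of cytochrome oxidase *Cox8b*, with 384 and 245 (-0.69 ± 0.21), and *Cox6a2*, with 792 and 528 (-0.63 ± 0.20), were lowest. *Ak1*, adenylate kinase, read 11270 and 8054 (-0.53 ± 0.20). *Gyg*, which primes glycogen, read 3419 and 4191 (0.25 ± 0.20), and *Pfkm*, muscle phosphofructokinase, 1915 and 1783 (-0.15 ± 0.20).

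Genes of the muscle membrane complex were level, with a median of -0.02 and 6 of 10 lower. The lowest was *Cav3*, the muscle caveolin, with 407 and 284 (-0.56 ± 0.21). *Dysf*, which serves membrane repair, read 1695 and 1759 (0.01), and *Sgcb*, a sarcoglycan, 774 and 736 (-0.11). Regulators and fusion genes had a median of 0.04, with 6 of 17 lower. *Vgll2*, a cofactor in muscle, read 128 and 89.3 (-0.56 ± 0.23), and *Myocd*, the smooth and cardiac muscle cofactor, 32.6 and 51.2 (0.61 ± 0.34). *Eya1* (0.23) and *Tbx1* (0.03), both among the brightest of this list, are also active in tooth and jaw tissue outside muscle.

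**Figure D5:**
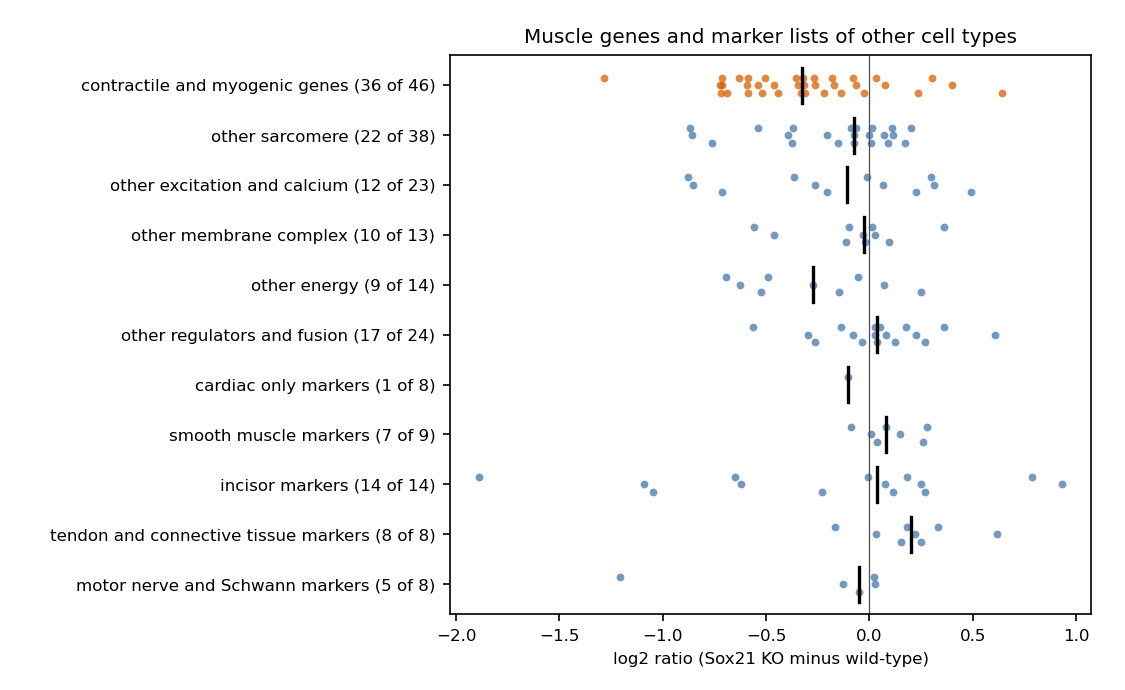
Log2 ratio (*Sox21* KO minus wild-type) of the muscle genes (orange), of 5 lists of other muscle genes and of 5 lists of other markers (blue), 1 point per measured gene, with the number measured and the list size in brackets. Black lines are medians. The contractile and myogenic genes have the lowest median, -0.33, and the connective tissue list the highest, 0.20.

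Markers of other cell types were read beside these values. Of 8 genes particular to heart muscle, 1, *Myh6*, was measured, with 57.1 and 54.7 (-0.10 ± 0.27), and 7, among them *Nppa*, *Tnni3* and *Myl7*, were near background in both genotypes. Of the 7 measured smooth muscle genes 6 were higher, a direction that 50.5% of all genes had. Their median was 0.08, their range -0.09 to 0.28, and their summed normalized signal 220 and 228. Among them *Acta2* read 9766 and 12187 (0.28 ± 0.20), and 0 of the 7 were beyond 2 scanner errors. *Myh11*, of the same list, read 14.7 and 28.1 and was well above background in KO alone. Tendon and connective tissue genes had a median of 0.20, with 7 of 8 higher against the same 50.5%, and a sum of 76.3 and 84.9. The other gene, *Tcf4* (-0.17), is listed under a symbol that is also an older name of another gene, a connective tissue marker, so it may be the wrong gene for this list, and the median and sum include it. Nerve genes had a sum of 12.1 and 12.0 and a median of -0.05 over 5 measured genes, among which the axonal neurofilament *Nefl* read 66.6 and 29.7 (-1.21). The incisor markers had 7 lower and 7 higher genes, a median of 0.03 and a range from -1.89 (*Amtn*) to 0.93 (*Dmp1*). The amount of muscle left on each dissected incisor is not given in the sources used here, and its part in the lower signals was not tested.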

How the data were processed

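Incisor RNA of wild-type and *Sox21* KO mice was measured on 2 one-colour arrays, 1 per genotype. Per the labels, 50 ng of RNA was labelled with Cy3, and the submitters' processing notes name Feature Extraction 10.7.3.1. The authors deposited a processed signal intensity for each spot, with background removed, and a table of values in which that signal is divided by a constant, a ratio on a linear scale. That constant was 267.8 for wild-type and 275.6 for KO. The study's methods name a percentile shift, with its percentile not stated.

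Here 267 outlier spots were left out, spots of a probe were averaged, each signal was divided by the 75th percentile of its array's spots, and its log2 was compared, KO minus wild-type. A gene took its brightest probe, by the gene name in the files, and counted as measured when both arrays marked that probe as well above background. A gene so marked on 1 array alone was given a bound against the larger of its other signal and the lowest marked signal of that array. Such a bound leaves out the scanner error. All 46 genes of the set are named. Of the other muscle lists, the 3 brightest genes of each and further genes with large differences are named, the latter chosen after their values were seen. Some genes that this rule takes are not reported here. The rule for the set names 5 classes, and 2, shared structure and energy, were added. The members and lists were chosen with earlier results of these data known. No test was run. Other scalings, background correction, filters and probe choices were tried. The steps were tested on simulated data. The tools were R 4.3.3 with limma 3.58.1, and Python 3.11.15 with pandas 2.3.3, numpy 2.4.6 and matplotlib 3.10.9.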

Additional observations from a re-analysis of the deposited data

How the results depend on the processing

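Under 8 alternatives, the median log2 ratio of the muscle genes minus that of all genes was -0.20 to -0.35, and 32 of 36 genes kept their direction. *Myh8*, *Actn3*, *Ttn* and *Cacna1s* did not. Scaling by the median of all spots moved the median of all genes to 0.10, and 27 of 36 muscle genes were then lower, against 33.4% of all genes. Their median was -0.23, 6 were at least 1.5-fold lower, and the class medians were -0.17 (embryonic), -0.23 (slow), -0.49 (fast), -0.41 (shared structure), -0.22 (energy), -0.041 (excitation) and -0.25 (myogenic factors, 1 gene). With normexp background correction 0 genes were at least 2-fold lower, *Myoz2* having -0.81, and the medians were -0.15 (embryonic), -0.23 (slow), -0.31 (shared structure) and -0.19 (myogenic factors). Without the background filter 4 genes were at least 2-fold lower (4.49% of all genes) and 2 at least 1.5-fold higher (6.77%), and the added genes, *Myh2*, *Chrna1*, *Myf6* and *Casq1*, were not well above background on at least 1 array, so these folds rest on background signals. The excitation median was -0.26 with the mean over probes and -0.44 with the dimmest probe. The cause of these moves was not tested, except that the filter and probe settings change which probes count. Of 288 single values, 7 moved by more than the scanner error, but many could not move. Dropping the background filter left the 36 ratios as they were, and the deposited values are the same signals over a constant. The probe settings could change only genes with more than 1 measured probe. The same limits hold for the count of kept directions. No paired analysis was possible because each genotype has 1 array. Signals near background limit *Myod1*, *Myf5*, *Pax7* and the receptor subunits.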
